A study of Mus musculus with 2 samples.

Results

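The let-7 family outside the genomic clusters that pair let-7 with Mir99 or Mir125 was described in small RNA sequencing of the embryonic mouse heart. It was chosen by name, as Mirlet7a-1, Mirlet7b, Mirlet7c-2, Mirlet7d, Mirlet7f-1, Mirlet7f-2, Mirlet7g, Mirlet7i and Mir98. Of these 9 genes 8 have a row among the 1973 miRNA genes counted, and Mirlet7f-1 has none. The study holds 1 group, hearts of B6NCrl embryos of both sexes at embryonic day 15.5, labelled healthy, with no treatment or engineered allele named. Hearts of 78 embryos were pooled for replicate 1 and of 62 for replicate 2, and the error given here is the spread between these pools. Reads were placed on mm10, and each count stands for a whole hairpin on its own strand. A level is the count of a gene per 1000000 counts of its library (CPM), with the SD of both pools after ± (n = 2).

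Replicate 1 had 3439539 counts on miRNA genes and replicate 2 had 5833156, and a count of 0 allows up to 3 counts, or 0.872 and 0.514 CPM. Reads that matched several places, 33.0% of the reads of replicate 1 and 30.1% of those of replicate 2, are in no gene count. Of the miRNAs that mark heart muscle (Mir208a, Mir208b and Mir499) all 3 were counted, and their summed level was 62341 CPM in replicate 1, against 45466 CPM in replicate 2. The epithelial list of 6 genes summed to 1452 and 5754 CPM in replicates 1 and 2. Of the 6 neural marker genes 5 have a row, 4 of them were at 0 in both libraries, and Mir9-3 had 1 and 9 counts. In replicates 1 and 2 the smooth muscle markers summed to 83564 and 89291 CPM and the red cell markers to 2376 and 986 CPM. Mir126a of endothelium had 79217 and 67775 CPM, Mir223 of leukocytes 336 and 471 CPM, Mir122 of liver 87.2 and 309 CPM and Mir206 of skeletal muscle 73.3 and 102 CPM. In bulk tissue, fewer cells of a type and less RNA per cell cannot be told apart.

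let-7 was among the earliest miRNAs to be found, as a timer of late larval development in Caenorhabditis elegans. In mammals its mature forms rise as cells leave the progenitor state, and known targets of the family include Lin28a, Hmga2 and Igf2bp1. The precursors are made by Drosha and Dicer like those of other miRNAs, with an extra brake, the RNA-binding protein Lin28, which holds the loop of the let-7 precursor and lets its tail be uridylated and degraded. The family is kept at many sites of the genome, with mature sequences that differ at few positions.

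The mature 5p sequences of the members are shown first because they carry the seed that defines the family and because a few differing bases decide which gene a read can be given to. They are taken from RefSeq on GRCm38.p6, which matched all 9 members by symbol, and the capitals mark the seed, bases 2 to 8.
let-7i-5p: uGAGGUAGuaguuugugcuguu
let-7g-5p: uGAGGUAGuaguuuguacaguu
let-7d-5p: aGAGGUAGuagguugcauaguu
miR-98-5p: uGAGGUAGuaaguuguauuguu
let-7b-5p: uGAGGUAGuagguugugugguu
let-7f-5p: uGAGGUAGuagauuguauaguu
let-7a-5p: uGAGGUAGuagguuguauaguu
let-7c-5p: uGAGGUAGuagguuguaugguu
All 8 sequences have 22 bases and the same seed, which 11 of 1679 mature miRNA names in the RefSeq table carry (0.655%). Positions are counted from 1 at the 5′ end, and substitutions are given with the base of let-7a-5p first. Relative to let-7a-5p, let-7f-5p differs by G12A alone and let-7c-5p by A19G alone. let-7b-5p carries A17G and A19G, let-7g-5p carries G12U and U18C, and miR-98-5p carries G11A and A19U. let-7d-5p carries U1A and U16C, which makes it the one member of the 8 that opens with another base. let-7i-5p is the farthest from let-7a-5p, with G12U, A17G, U18C and A19U.

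**Figure D1:**
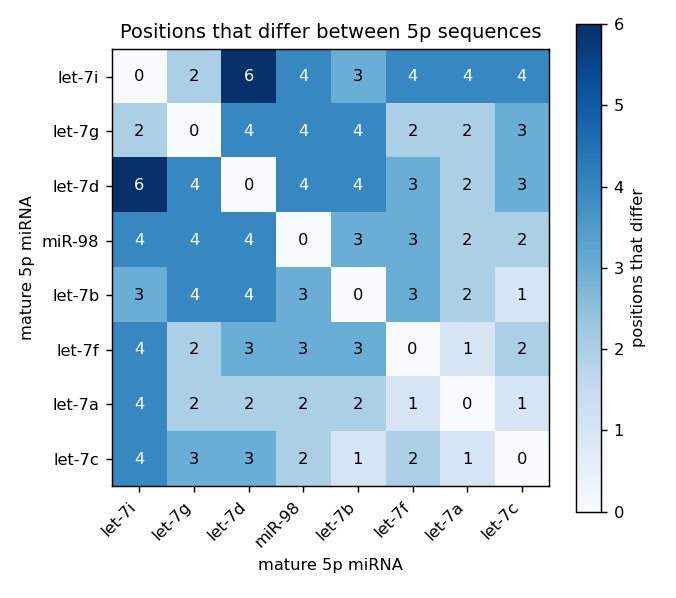
Number of positions that differ between the 22-base mature 5p sequences of each pair of members, by row and column, with darker blue for more differences. The pairs let-7a with let-7c, let-7a with let-7f and let-7b with let-7c differ at 1 position, and let-7i with let-7d at 6.

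The sequences fall into those held by 1 annotated hairpin and those held by another as well. In a search for the exact sequence over RefSeq and GENCODE miRNA hairpins, the 5p sequences of Mirlet7i, Mirlet7g, Mirlet7d, Mir98 and Mirlet7b were found in 1 gene each. let-7a-5p was found in Mirlet7a-1 and Mirlet7a-2, let-7c-5p in Mirlet7c-1 and Mirlet7c-2, and let-7f-5p in Mirlet7f-1 and Mirlet7f-2. The search did not cover the genome outside annotated hairpins. The 3p arms of 3 members are shown because that of Mirlet7a-1 is also that of Mirlet7c-2, while that of Mirlet7f-2 was found in 1 gene, with bases 2 to 8 in capitals.
let-7a-1-3p: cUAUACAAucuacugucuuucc
let-7c-2-3p: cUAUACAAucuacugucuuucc
let-7f-2-3p: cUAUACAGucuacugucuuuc
Both listed arms of Mirlet7a-1 and both listed arms of Mirlet7c-2 therefore occur in another annotated hairpin, and a read of exactly such a sequence matches several places and is in no count.

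By counts given to 1 place, the family was led by 2 genes at nearly equal levels. Reads of exactly let-7a-5p, let-7c-5p or let-7f-5p are in no count and have no part in this order. Mirlet7i (ENSMUSG00000065406.2), on the minus strand of chromosome 10 at positions 122985640 to 122985724, overlaps an exon of the processed pseudogene D630033A02Rik. It had 195374 counts in replicate 1 and 347017 in replicate 2, which are 56802 CPM (exact binomial 95% interval 56558 to 57048) and 59490 CPM (59299 to 59683). Mirlet7g (ENSMUSG00000065440.1) sits on the plus strand of chromosome 9 at positions 106178840 to 106178927, within an intron of Wdr82, and had 194192 and 328766 counts, or 56459 CPM (56215 to 56703) and 56362 CPM (56175 to 56549). Wdr82 encodes a subunit of a histone methyltransferase complex. The ratio of Mirlet7i to Mirlet7g was 1.01 in replicate 1 (95% interval by the exact binomial method 0.9998 to 1.012), against 1.06 in replicate 2 (1.05 to 1.06). The interval of replicate 1 includes 1 and that of replicate 2 does not. The means of both genes differed by 1736 CPM, less than the SD of Mirlet7i (1901 CPM). The leading genes thus did not differ beyond the spread between the pools. Both genes together held 81.0% of the members' counts in replicate 1 and 79.6% in replicate 2. They ranked 6 and 7 of all 1973 genes in each library.

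Below them the levels fell in steps larger than the spread. Mirlet7d (ENSMUSG00000065453.1), on the minus strand of chromosome 13 at positions 48536012 to 48536114, had 15834 CPM in replicate 1, against 17392 CPM in replicate 2, and ranked 15 in each. Mirlet7g had 3.57 times its level in replicate 1 and 3.24 times in replicate 2. Mir98 (ENSMUSG00000065536.2), the member with a name of its own, lies in an intron of the ubiquitin ligase gene Huwe1 on chromosome X at positions 151913214 to 151913321. It had 5778 and 6272 CPM in replicates 1 and 2. Mirlet7b (ENSMUSG00000065564.1), on chromosome 15 at positions 85707319 to 85707403 in an exon of the long noncoding RNA Lncppara, had 2702 and 3507 CPM. With 3105 ± 569 CPM it had the largest relative spread of the 5 members whose 5p sequence was found in 1 gene. Its coefficient of variation was 18.3%, against 0.122% for Mirlet7g. The size of this contrast depends on the scaling. With library totals scaled by a trimmed mean of log ratios over genes (TMM), Mirlet7b had 3086 ± 307 CPM and Mirlet7g 56514 ± 4854 CPM. The 5 members with a 5p sequence found in 1 gene summed to 140299.5 ± 3852 CPM by total counts. They made up 98.3% ± 0.0397 of the members' counts. Reads of a shared sequence are left out of these counts.

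The members with a 5p sequence found in a second gene were counted at lower levels. Mirlet7f-2 (ENSMUSG00000065602.1), in an intron of Huwe1 at positions 151912346 to 151912428, had 2126 CPM in replicate 1, against 2234 CPM in replicate 2. Mirlet7a-1 (ENSMUSG00000065421.2), on the minus strand of chromosome 13 at positions 48538179 to 48538272, had 436 and 969 counts, which are 127 CPM (exact binomial 95% interval 115 to 139) and 166 CPM (156 to 177). Mirlet7c-2 (ENSMUSG00000065608.1), in an exon of Lncppara on chromosome 15 at positions 85706603 to 85706697, had 260 and 604 counts, or 75.6 CPM (66.7 to 85.4) and 104 CPM (95.5 to 112). Mirlet7f-2 thus had 14.9 times the mean level of Mirlet7a-1, and Mirlet7a-1 had 1.63 times that of Mirlet7c-2. Because reads of a shared sequence are in no count, these values may lie below those of the mature miRNAs, and the order of these genes is one of counts given to 1 place.

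**Figure D2:**
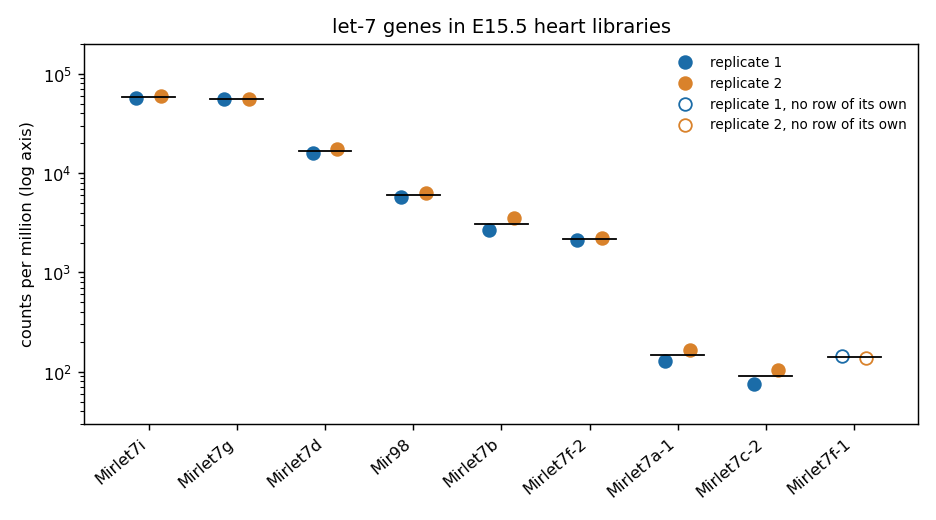
CPM (log axis) of each let-7 gene in replicate 1 (blue) and replicate 2 (orange) with their mean as a bar, and open points for Mirlet7f-1, whose counts come from the row of the gene annotated across from it. The levels run from 58146 CPM for Mirlet7i to 89.6 CPM for Mirlet7c-2, and the points of Mirlet7i and Mirlet7g lie at nearly the same height.

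Over all 8 counted members the sum was 139904 CPM in replicate 1, against 145527 CPM in replicate 2, a mean of 142716 ± 3976 CPM, or 14.3% ± 0.398 of all counts. With TMM-scaled totals this mean was 142803 ± 8122 CPM. All 8 reached at least 10 counts in both libraries, as did 327 of the 1973 genes. The median mean level of the members was 4565 CPM, and that of the 327 detected genes was 146 CPM, which is the value of Mirlet7a-1 itself. Of the members 2 were among the 10 highest genes, 3 among the 20 highest and 6 among the 100 highest. In each pair of neighbours in this order the values of the libraries did not overlap, and all but the first pair differed by more than the larger SD of the pair. The difference between Mirlet7a-1 (146 ± 27.8 CPM) and Mirlet7c-2 (89.6 ± 19.8 CPM) was 56.9 CPM.

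Of the members 7 lie in 3 genomic clusters, each within a single host on one strand, so neighbouring members can come from one primary transcript. Mirlet7a-1, Mirlet7f-1 and Mirlet7d overlap exons of the long noncoding RNA 6720427I07Rik on chromosome 13, where 2064 bases separate Mirlet7d from Mirlet7a-1. The ratio of counts of Mirlet7d to Mirlet7a-1 was 125 in replicate 1 (95% interval by the exact binomial method 114 to 138), against 105 in replicate 2 (98.3 to 112), a log2 ratio of 6.84 ± 0.18. Mirlet7b lies 621 bases from Mirlet7c-2, and their ratio was 35.8 in replicate 1 (31.6 to 40.6) and 33.9 in replicate 2 (31.2 to 36.8), a log2 ratio of 5.12 ± 0.06. Mir98 lies 785 bases from Mirlet7f-2, and their ratio was 2.72 in replicate 1 (2.65 to 2.79) and 2.81 in replicate 2 (2.75 to 2.86), a log2 ratio of 1.47 ± 0.03. In each cluster the member whose 5p sequence was found in 1 gene had more counts than the member with a shared one, in both libraries. The part that shared sequences have in these ratios was not tested.

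**Figure D3:**
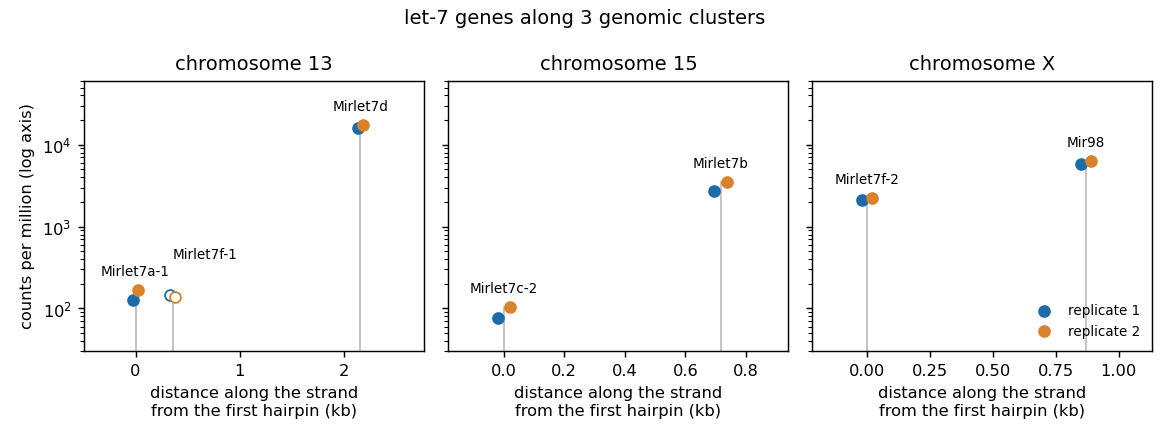
CPM (log axis) against the distance along the strand from the first hairpin of each cluster in kilobases, with replicate 1 in blue, replicate 2 in orange and open points for Mirlet7f-1. In each panel the last hairpin is the highest, Mirlet7d at 16613 CPM, Mirlet7b at 3105 CPM and Mir98 at 6025 CPM on average.

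Mirlet7f-1, the member without a row, can be read from a neighbouring row. It lies on the minus strand of chromosome 13 at positions 48537829 to 48537917, and a miRNA gene named Gm24111 (ENSMUSG00000093232.1) is annotated across from it on the plus strand at positions 48537825 to 48537921, covering the whole hairpin. Counts on the strand opposite Gm24111, which is the strand of Mirlet7f-1, were 497 in replicate 1 and 806 in replicate 2, while Gm24111 itself had 1 count in each. These would make 144 and 138 CPM, or 141 ± 4.47 CPM. Against Mirlet7a-1, 261 bases away, the ratio was 1.14 in replicate 1 (95% interval by the exact binomial method 1.00 to 1.30), against 0.832 in replicate 2 (0.757 to 0.914), so that the libraries gave opposite directions. Mirlet7d exceeded Mirlet7f-1 by a log2 ratio of 6.88 ± 0.14.

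The bases next to the shared sequences differ between the copies. They are shown for the 3 shared 5p sequences, with the 4 following bases of the hairpin in capitals, because a read that runs on into them can be given to 1 copy.
Mirlet7f-1: ugagguaguagauuguauaguuGUGG
Mirlet7f-2: ugagguaguagauuguauaguuUUAG
Mirlet7a-1: ugagguaguagguuguauaguuUUAG
Mirlet7a-2: ugagguaguagguuguauaguuUAGA
Mirlet7c-2: ugagguaguagguuguaugguuUUGG
Mirlet7c-1: ugagguaguagguuguaugguuUAGA
The copies of let-7f part at the first following base, where the hairpin of Mirlet7f-1 goes on with G and that of Mirlet7f-2 with U. The copies of let-7a and of let-7c share the first following base and part at the second. Mirlet7f-2 had 7313 and 13032 counts in replicates 1 and 2, against 497 and 806 for Mirlet7f-1. Mirlet7a-1, the next copy, had 436 and 969 counts, against 474 and 1119 for Mirlet7a-2. Mirlet7c-2 had 260 and 604 counts, against 402 and 775 for Mirlet7c-1. Which arm, length or tail the counted reads had cannot be read from counts per hairpin.

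The other let-7 genes added little to the counted family. Of the 6 listed, 5 have a row, and their summed level was 329 CPM in replicate 1, against 408 CPM in replicate 2, so that the members held 99.8% and 99.7% of the family's counts. Mirlet7a-2 and Mirlet7c-1 share their 5p sequences with members, and reads of exactly these sequences are in no count. The shares thus cover only reads given to 1 place, not all let-7 of the heart. Mirlet7a-2 and Mirlet7c-1, which lie beside Mir100 or Mir99a, had 165 ± 38.2 and 125 ± 11.3 CPM. Mirlet7e has no row either, and counts on its strand, opposite the gene Gm25927 (ENSMUSG00000092799.1) that covers its whole hairpin on chromosome 17, would make 4360 CPM in replicate 1 and 5202 CPM in replicate 2. With Mirlet7e and Mirlet7f-1 so added, the members held 96.5% ± 0.331 of the family's counts. Mir7j, the gene of let-7j, had 255 and 483 counts. Over the 22 bases of let-7i-5p its mature sequence differs by G8U alone, within the seed, and its counts were 0.130% and 0.139% of those of Mirlet7i and Mir7j together in replicates 1 and 2. Whether those reads came from that gene was not tested. Mir7k was at 0 in both libraries and Mir202, whose mature forms lack the let-7 seed, had 0 and 1 counts.

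Lin28 is known to bind a GGAG stretch in the loop of let-7 precursors, and the loops were searched for these letters on the hairpin's own strand. The stretch between the listed arms holds GGAG in 6 of the 9 members, namely Mirlet7a-1, Mirlet7d, Mirlet7f-1, Mirlet7f-2, Mirlet7g and Mirlet7i, and in 52 of 644 RefSeq hairpins with both arms listed (8.07%). The loops of the leading genes and of Mirlet7b are shown from the end of the 5p arm to the start of the 3p arm, with GGAG in capitals, as examples with and without it.
Mirlet7g loop: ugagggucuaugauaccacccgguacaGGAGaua
Mirlet7i loop: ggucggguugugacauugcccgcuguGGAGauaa
Mirlet7b loop: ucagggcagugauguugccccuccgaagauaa
Mirlet7b, Mirlet7c-2 and Mir98 have no such letters between their arms. Both leading members hold the letters, and of the lowest pair by count Mirlet7a-1 holds them and Mirlet7c-2 does not. A match of letters is not evidence of binding, and Lin28 was not measured here.

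The question of replication is how far the pools differed, and the log2 ratios of replicate 1 to replicate 2 lay between -0.28 for Mirlet7c-2 and 0.18 for Mirlet7g after TMM scaling (by a trimmed mean of log ratios over genes). Each gene was compared between the libraries by an exact conditional binomial test, two-sided, after TMM scaling. Its only error is counting noise, and it was run with Benjamini-Hochberg adjustment over 413 genes and a threshold of 0.05. All 8 members passed, where 46.5% of all tested genes did, 5 of them higher in replicate 1 (21.8% of all genes) and 3 higher in replicate 2 (24.7%). The median size of the difference was 0.14 over the members and 0.29 over all tested genes. In edgeR's exact test with a spread between the pools estimated over all genes (biological coefficient of variation 0.299), 0 of 8 members passed, where 1.69% of all genes did, and 0 had an unadjusted p under 0.05. That spread came from the same 2 libraries that were compared, so a gene that differed no more than most could hardly pass.

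**Figure D4:**
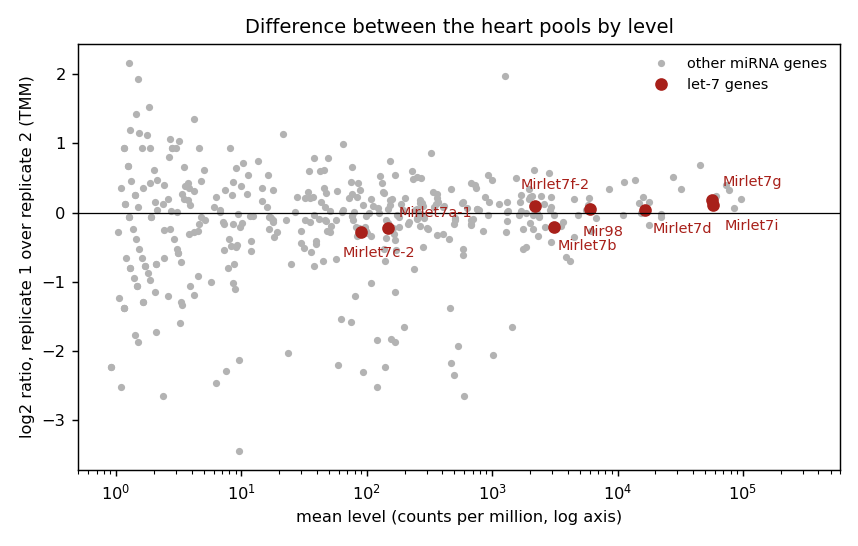
Log2 ratio of replicate 1 over replicate 2 after TMM scaling against the mean CPM (log axis), with let-7 genes in red and other miRNA genes in grey (409 genes, without 4 at 0 in one library). The let-7 genes lie between -0.28 and 0.18 on the log2 scale.

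Mirlet7b, Mirlet7a-1 and Mirlet7c-2 were lower in replicate 1 under each of 3 scalings. Mirlet7b had a log2 ratio of -0.20 by TMM, -0.16 by DESeq2 size factors and -0.38 by total counts. Mirlet7c-2, its neighbour on chromosome 15, had -0.28, -0.24 and -0.45, and Mirlet7a-1 had -0.22, -0.18 and -0.39. Mirlet7g was higher in replicate 1 by 0.18 with TMM and 0.22 with DESeq2 size factors, but by 0.0025 with total counts, where it did not pass the exact binomial test (adjusted p = 0.653). Mirlet7i, Mirlet7d, Mir98 and Mirlet7f-2 were higher in replicate 1 by TMM, at 0.11, 0.038, 0.055 and 0.10, and lower by total counts, at -0.067, -0.14, -0.12 and -0.071, so that their direction depends on the scaling. By total counts 7 of 8 members passed (49.2% of all genes did) and by DESeq2 size factors 6 of 8 (45.5%). TMM moves all ratios by 0.17 relative to total counts, and DESeq2 size factors by 0.21.

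**Figure D5:**
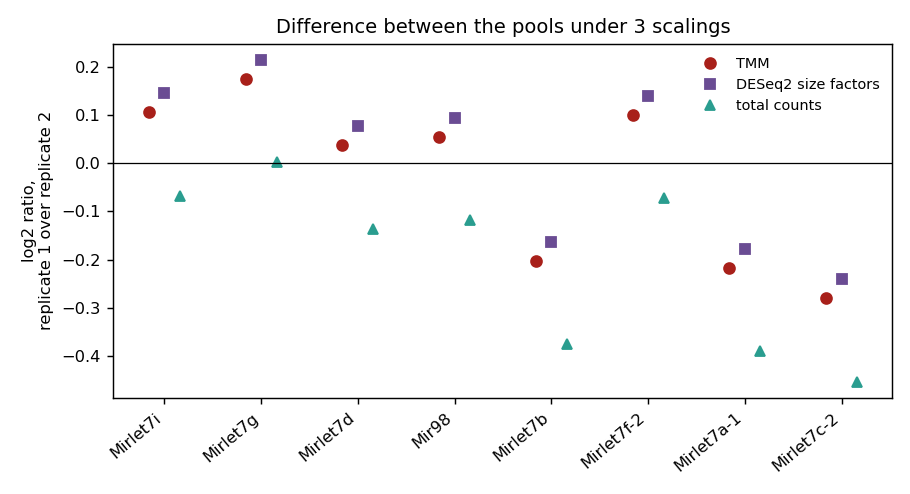
Log2 ratio of replicate 1 over replicate 2 of each member, in order of level, by TMM (red circles), DESeq2 size factors (purple squares) and total counts (green triangles). Mirlet7b, Mirlet7a-1 and Mirlet7c-2 stay below 0 under all 3, while 4 members lie above 0 by TMM and below 0 by total counts.

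Shares within the family do not depend on this scaling. Mirlet7b made up 1.93% of the members' counts in replicate 1 (95% interval by the exact binomial method 1.89% to 1.97%), against 2.41% in replicate 2 (2.38% to 2.44%). Mirlet7g made up 40.4% in replicate 1 (40.2% to 40.5%) and 38.7% in replicate 2 (38.6% to 38.8%). Mirlet7i made up 40.6% and 40.9%. The intervals, which cover counting error only, did not overlap between the pools for 7 of 8 members, all but Mirlet7f-2. Over all 413 genes tested the same held for 43.6%, with each gene that is no member set against its own and the members' counts. The markers were compared between the pools by the same exact test after TMM scaling. Higher in replicate 1 were 3 of 3 heart muscle, 2 of 2 smooth muscle and 1 of 1 endothelial markers. So were 1 of 2 red cell markers and 21.8% of all genes tested. Without TMM scaling, Mir143 of smooth muscle was lower in replicate 1 (82454 CPM) than in replicate 2 (88393 CPM), so that its direction depends on the scaling. All 6 of 6 epithelial markers and 1 of 1 each for leukocytes, liver and skeletal muscle were higher in replicate 2, as were 24.7% of all genes, and the 1 neural marker tested did not pass. Their part in the lower share of Mirlet7b in replicate 1 was not tested. Among 73 other genes with at least 1000 CPM, those with a ratio of the pools nearest to the median of the members (log2 ratio 0.046) were Mir487b (0.042), Mir20a (0.040) and Mir423 (0.038), a likeness that rests on 2 libraries.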

How the data were processed

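Small RNA of 2 pools of hearts was counted. The authors deposited whole read counts per miRNA gene, not normalized, on mm10 with GENCODE M4 per the deposited text files. Aligner, trimming and counter: not given in the sources used here. Counts on the gene's own strand were used, the column whose total far exceeds that of the opposite strand. Lines that name no gene stayed out of totals. Unmapped reads were 13.1% and 15.1% in replicates 1 and 2. Reads assigned to no gene on its own strand were 5.11% and 5.07%, which include reads opposite a miRNA gene. Symbols and positions came from GENCODE M21 on the same assembly, which matched 1894 of 1973 IDs without version, and sequences from RefSeq on GRCm38.p6.

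Levels are counts per 1000000 counts on the gene's strand, with exact binomial (Clopper-Pearson) 95% intervals. Reads without molecular identifiers are not independent molecules, and intervals and floors cover counting error only. The libraries were compared by an exact conditional binomial test at TMM-scaled totals (factors 0.942 and 1.06, edgeR 4.0.16 in R 4.3.3) on genes with at least 10 counts summed. The test was checked on simulated counts with counting noise alone, as the test itself assumes. That check does not cover the spread between the pools. Alternatives were total counts, DESeq2 1.42.0 size factors, no filter, either strand, and edgeR's exact test with a common dispersion from an intercept alone. Python 3.11.15 with scipy 1.17.1, pandas 2.3.3, numpy 2.4.6 and matplotlib 3.10.9 did the rest. The rule for named genes took the 9 members, the other let-7 genes, cell type markers and 3 genes of most similar ratio; Mirlet7e and Gm24111 values on the opposite strand were added after their values were seen. The members and lists were chosen with earlier results of these data known.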

Additional observations from a re-analysis of the deposited data

Results flagged for a closer look

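Counts outside the strand that was analysed exceeded the limit that a count of 0 allows, 3 counts, at 3 places of the family. On the strand of Mirlet7f-1, opposite Gm24111, replicate 1 had 497 counts and replicate 2 had 806. On the strand of Mirlet7e, opposite Gm25927, replicate 1 had 14998 counts and replicate 2 had 30344, more than Mirlet7b in each library. Opposite Mirlet7b, where the annotation used here lists no gene, replicate 1 had 5 counts and replicate 2 had 9, against 9295 and 20456 on its own strand.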

How the results depend on the processing

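No paired analysis was possible because the study has 1 group. The members' summed level was 70263 per 1000000 of all reads and 135156 CPM with both strands counted, since the totals divided by are larger, and ranged from 139904 to 145527 CPM with 1 replicate left out. With TMM-scaled totals it was 142803 ± 8122 CPM, a larger SD than the 3976 CPM by total counts. The share of the family's counts held by the members was 96.5% with Mirlet7f-1 and Mirlet7e added, added after the data were seen. The log2 ratio of Mirlet7f-1 to Mirlet7a-1 was -0.27 without replicate 1 and 0.19 without replicate 2. All 8 members stayed detected at minimums of 1 and 100 counts. By total counts 7 members passed (49.2% of all genes did) and by DESeq2 size factors 6 (45.5%). By total counts the log2 ratio of Mirlet7g was 0.0025 and did not pass, and the direction turned for Mirlet7i (-0.067), Mirlet7d (-0.14), Mirlet7f-2 (-0.071) and Mir98 (-0.12). By DESeq2 size factors Mirlet7a-1 (-0.18, adjusted p = 0.0705) and Mirlet7c-2 (-0.24, adjusted p = 0.0548) did not pass. With a common dispersion 0 of 8 members and 7 of all genes passed, against 8 and 192, and the ratios were 0.18 for Mirlet7g, 0.11 for Mirlet7i, 0.038 for Mirlet7d, 0.055 for Mir98, 0.10 for Mirlet7f-2, -0.20 for Mirlet7b, -0.22 for Mirlet7a-1 and -0.28 for Mirlet7c-2. Of 40 alternative values of single member levels 12 moved by more than 1 SD. Of these, 8 were per 1000000 of all reads, where the total divided by is larger, 3 with both strands counted and 1 by TMM. The values with 1 replicate left out cannot move by this rule, since each of 2 pools lies within 1 SD of their mean. The count of 12 is thus no measure of how stable the levels are. With 2 pools the SD rests on 1 difference, and depth limits only Mirlet7a-1, Mirlet7c-2 and Mirlet7f-1, with under 1000 counts per library.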
